A study of Mus musculus with 6 samples.

Results

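The 8 genes described here encode enzymes and partner proteins that build liver glycogen (Ugp2, Gyg, Gys2, Gbe1), bind it or strip phosphate from it (Stbd1, Epm2a) and break it down (Pygl, Gaa). They were chosen by name, with earlier results of these data known. All probe sets annotated with a single gene symbol of the list were taken. All 8 genes were found among the 18193 genes with a named probe set. Together they had 15 probe sets, of which 14 passed a filter on low signals, and every gene kept at least 1. The tissue was frozen liver from 6 male mice, 3 ChLO and 3 WT, with 1 Affymetrix array per mouse. In ChLO mice floxed alleles of Chrebp (symbol Mlxipl) meet albumin-Cre, a recombinase made in hepatocytes. The state of the gene in each of the other liver cell types was not measured. WT mice are labelled only as wild type, and the labels do not state whether they carried floxed alleles. All mice were 12 weeks of age, and both groups had 60% sucrose in their diet during 1 week. The comparison asks how liver transcripts differ when ChREBP, a transcription factor that carbohydrate activates, is deleted in hepatocytes during a sucrose load. In bulk liver, fewer cells of a type and less RNA per cell cannot be told apart.

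Glycogen is a branched polymer of glucose that hepatocytes lay down after a meal and release as blood glucose between meals. UDP-glucose pyrophosphorylase makes the activated glucose donor, glycogenin starts a chain on itself, glycogen synthase extends it and the branching enzyme adds branch points. Glycogen phosphorylase removes glucose units in the cytosol as glucose-1-phosphate, and acid alpha-glucosidase digests glycogen that has reached the lysosome. The liver uses its own isoforms of the synthase (Gys2) and the phosphorylase (Pygl), distinct from those of muscle and brain.

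The labels of the arrays were checked first on the deleted gene. Mlxipl, measured by 1 probe set, had log2 signals of 10.34, 11.22 and 11.48 in ChLO livers, against 12.61, 12.56 and 12.59 in WT livers. Every ChLO array lay below every WT array, ChLO 1 being the lowest and ChLO 3 the highest of the ChLO arrays. The labels do not state which exons were floxed, so the position of this probe set relative to them is unknown. Known targets of ChREBP (Rgs16, Pklr, Thrsp, Khk) were lower in 4 of 4 cases, with a median of -3.25. These targets were listed with earlier results of these data known, so they are no independent check of the labels. All 9 hepatocyte markers measured passed the filter. Arrays correlated with each other at 0.894 to 0.954 over the genes tested. ChLO 3 correlated more closely with each WT array (0.936 to 0.953) than with ChLO 1 (0.898) or ChLO 2 (0.932). ChLO 1 and ChLO 2 correlated most closely with each other (0.951). Over all genes tested, ChLO 3 thus resembled the WT arrays more than its own group, and the cause was not tested. Array medians were between 6.38 and 6.60 log2 units.

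Signals of the glycogen genes were mostly lower in ChLO livers, by the widest margin for Pygl. Pygl, the liver glycogen phosphorylase, was 2.75-fold lower, whereas Gyg, glycogenin, was 1.61-fold higher by its brighter probe set. The second probe set of Gyg gave a log2 difference of 0.47 with overlapping groups. No member passed limma at an adjusted p under 0.05 over all 12598 genes, a threshold that 0 genes of the array passed (0%). At an unadjusted p under 0.05, 1 member was lower (Pygl) and 1 was higher (Gyg). The same threshold was met by 3.5% of all genes in the lower and 5.46% in the higher direction. The groups did not overlap for Pygl and Gaa, both lower in ChLO, a pattern of 6.19% of all genes, and for Gyg, higher in ChLO, a pattern of 9.04%. In all, 7 of the 8 members had a lower mean in ChLO, against 43.5% of all genes. This direction was not particular to them, as 9 of 9 hepatocyte markers and 7 of 8 genes around glucose-6-phosphate shared it. It held for 2 of 5 other glycogen enzymes and 9 of 18 phosphatase subunits and kinases. With scaling to spike-in controls the count of lower members was 6, since the difference of Stbd1 turned positive. The median difference of the members was -0.46 on the log2 scale, beside 0.06 over all genes tested, and -0.25 without ChLO 1. Spike-in scaling gave a median of -0.21 for the members, beside 0.31 over all genes, with -0.27 for Ugp2, -0.16 for Gbe1 and -0.10 for Gaa. These shares describe the list and are not a test of it.

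**Figure D1:**
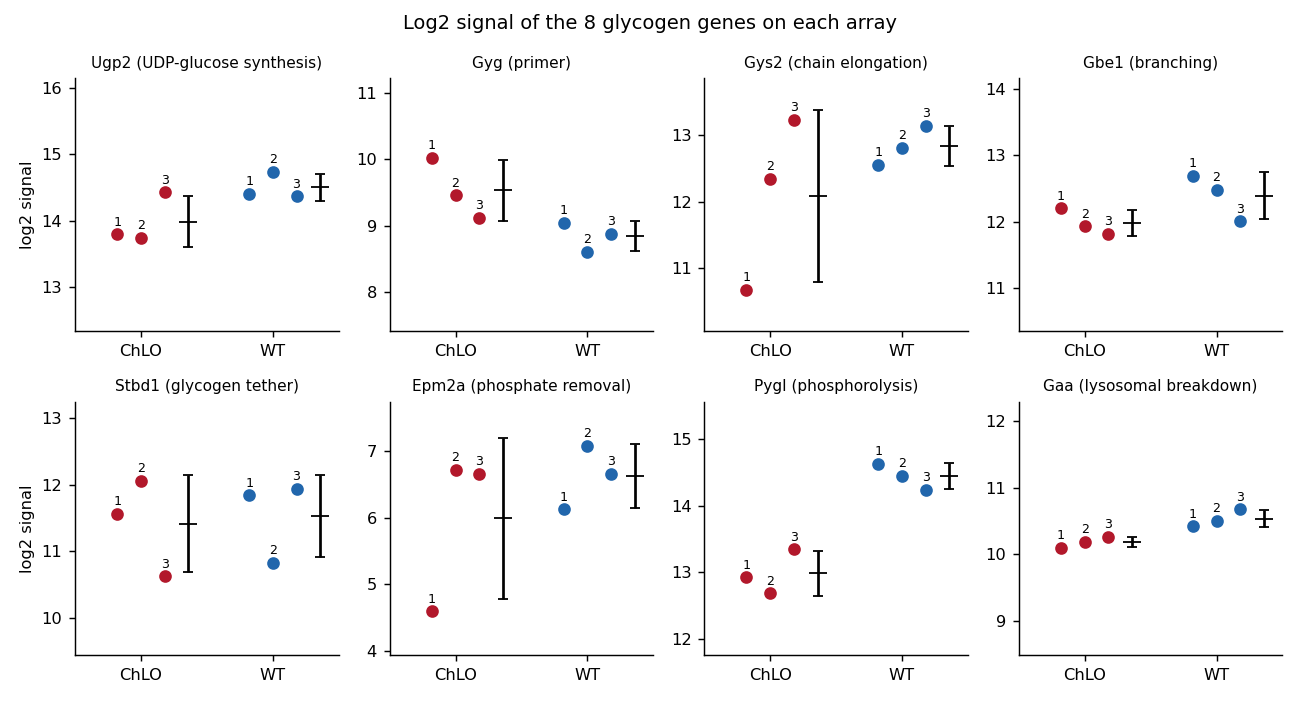
Log2 signal (vertical axis) of the probe set that represents each of the 8 genes, with 3 ChLO arrays on the left and 3 WT arrays on the right of each panel; numbers are replicates and bars are mean ± SD. Pygl separates the groups, from 12.68 to 13.34 in ChLO and from 14.24 to 14.63 in WT, while Gys2 and Epm2a have their lowest signal in ChLO 1, at 10.68 and 4.59.

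The start regions of these genes were searched for CACGTG, the E-box that ChREBP-type factors can bind, since the deleted factor binds pairs of E-box-like motifs. Windows of 250 bases before to 50 after an annotated start, from RefSeq on GRCm38.p6, were at hand for 7 of the 8 genes, 8 windows in all; Gys2 had none. CACGTG reads the same on both strands and was found in 2 of the 8 windows, those of Gyg and Gaa, beside 7.15% of all 32851 windows. The full carbohydrate response element consensus, 2 E-box-like motifs at a fixed spacing searched on both strands, was found in 0 of the 8 windows and in 0.119% of all windows. A match is only a match of letters in a short window. The 3 windows below are those of the genes whose groups did not overlap, Gyg (chr3:20155067-20155366, minus strand), Pygl (chr12:70227634-70227933, minus strand) and Gaa (chr11:119267713-119268012, plus strand). Each is written 5′ to 3′ on the gene's strand, with CACGTG in capitals.
Gyg: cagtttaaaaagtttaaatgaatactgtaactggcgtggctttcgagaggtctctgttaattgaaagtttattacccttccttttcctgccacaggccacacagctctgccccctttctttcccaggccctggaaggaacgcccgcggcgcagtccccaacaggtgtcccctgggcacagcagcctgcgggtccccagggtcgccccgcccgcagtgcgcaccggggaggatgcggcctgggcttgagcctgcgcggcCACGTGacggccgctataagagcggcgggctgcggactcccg
Pygl: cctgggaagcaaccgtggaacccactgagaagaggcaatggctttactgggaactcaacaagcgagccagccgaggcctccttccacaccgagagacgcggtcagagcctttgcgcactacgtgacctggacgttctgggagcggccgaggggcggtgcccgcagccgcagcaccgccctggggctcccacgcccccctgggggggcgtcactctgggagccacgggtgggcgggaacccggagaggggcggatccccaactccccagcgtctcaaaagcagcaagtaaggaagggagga
Gaa: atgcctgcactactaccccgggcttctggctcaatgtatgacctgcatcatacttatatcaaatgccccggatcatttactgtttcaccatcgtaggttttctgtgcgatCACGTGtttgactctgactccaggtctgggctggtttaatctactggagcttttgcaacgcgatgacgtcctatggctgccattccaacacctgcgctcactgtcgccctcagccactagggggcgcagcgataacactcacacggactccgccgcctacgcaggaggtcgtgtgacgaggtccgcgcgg
The box of Gyg begins 8 bases after the annotated start and that of Gaa 140 bases before it, and the Pygl window holds no CACGTG.

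Of the enzymes that build glycogen, Ugp2 comes first; it makes UDP-glucose, which also feeds glucuronidation. Ugp2 had log2 signals of 13.79, 13.74 and 14.43 in ChLO livers, against 14.40, 14.73 and 14.37 in WT livers. ChLO 1 and ChLO 2 lay below every WT array and ChLO 3 lay within the WT range. The difference was -0.51 (SE 0.23, 95% interval -1.05 to 0.02, limma adjusted p = 0.571). The 4 other probe sets of Ugp2 gave differences of -0.58 to -0.48 and the same arrangement of arrays. When single arrays were omitted, the differences of these 4 probe sets ran from -0.89 (without ChLO 3) to -0.26 (without WT 2). Probe sets of a gene read the same RNA on the same arrays, so their likeness speaks for the measurement of these samples only.

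Gyg, the self-glucosylating primer of glycogen, was the one member with a higher mean in ChLO. Its log2 signals were 10.03, 9.46 and 9.12 in ChLO livers, against 9.05, 8.61 and 8.88 in WT livers. The groups did not overlap, although ChLO 3 stood close above WT 1. The probe set read here is of a kind that can match several transcripts. The difference was 0.69 (SE 0.27, 95% interval 0.07 to 1.30, limma adjusted p = 0.532), and it was 0.44 without ChLO 1. The second probe set of Gyg read 8.85, 8.34 and 8.37 in ChLO, against 7.92, 8.61 and 7.62 in WT, a difference of 0.47 (SE 0.31) with overlapping groups. Single omissions moved it to 0.25 without WT 3, 0.30 without ChLO 1 and 0.75 without WT 2.

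Gys2, the liver glycogen synthase that lengthens the chains, varied widely among the ChLO livers. Its log2 signals were 10.68, 12.35 and 13.23 in ChLO, against 12.56, 12.82 and 13.15 in WT. ChLO 1 was far below all other arrays, ChLO 2 was slightly below the WT range and ChLO 3 was above every WT array. The SD was 1.30 in ChLO and 0.30 in WT (n = 3 each). The pooled SD of Gys2 within groups, 0.94, lay at percentile 91.8 of all genes tested, whose median was 0.35. The difference of -0.75 (SE 0.56, 95% interval -2.06 to 0.55, limma adjusted p = 0.695) became -0.05 without ChLO 1 and -1.32 without ChLO 3. These arrays thus give no settled direction for Gys2.

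Gbe1, the branching enzyme, read 12.20, 11.93 and 11.81 in ChLO livers, against 12.69, 12.48 and 12.00 in WT livers. ChLO 2 and ChLO 3 lay below every WT array, whereas ChLO 1 lay above WT 3. The difference was -0.41 (SE 0.22, 95% interval -0.91 to 0.09, limma adjusted p = 0.609), and it was -0.26 without WT 1 and -0.60 without WT 3. Its lowest ChLO array was ChLO 3, unlike for Gys2, where ChLO 3 was the highest.

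Stbd1 and Epm2a act on the glycogen particle itself. Stbd1 encodes a membrane protein that binds glycogen and tethers it to membranes. It read 11.56, 12.06 and 10.62 in ChLO, against 11.84, 10.82 and 11.93 in WT. Low and high arrays occurred in both groups, and the difference of -0.12 (SE 0.42, 95% interval -1.08 to 0.85, limma adjusted p = 0.942) was within the spread and ran from -0.47 (without WT 2) to 0.28 (without ChLO 3) when single arrays were omitted. Epm2a encodes laforin, the phosphatase that removes phosphate from glycogen and is lost in Lafora disease. It read 4.59, 6.72 and 6.66 in ChLO, against 6.13, 7.09 and 6.67 in WT. Only ChLO 1 stood apart, at a level below the filter of 5.50 that was applied to the mean of all arrays. The difference of -0.64 (SE 0.64, limma adjusted p = 0.762) became 0.062 without ChLO 1 and -1.002 without ChLO 2. A second, dimmer probe set of Epm2a did not pass the filter, and there the lowest reading was 3.11 in WT 1, against 3.49 in ChLO 1. Nhlrc1, which encodes malin, the ubiquitin ligase partner of laforin, read 5.98, 5.90 and 6.86 in ChLO, against 6.96, 7.21 and 7.05 in WT. Its groups did not overlap, an arrangement with lower ChLO that 6.19% of all genes showed. The difference was -0.83 (SE 0.38, 95% interval -1.72 to 0.06, limma adjusted p = 0.578), at signals not far above the filter.

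In both breakdown enzymes among the members all ChLO arrays lay below all WT arrays, a pattern of 6.19% of all genes. Pygl, which releases glucose-1-phosphate from glycogen, read 12.92, 12.68 and 13.34 in ChLO livers, against 14.63, 14.45 and 14.24 in WT livers. The highest ChLO array was below the lowest WT array, and relative to the average of WT the ChLO arrays stood at -1.52, -1.76 and -1.10. The difference was -1.46 (SE 0.22, 95% interval -1.96 to -0.96), with a limma adjusted p of 0.102, lower in 3 of 3 ChLO arrays. By unadjusted p it ranked 19 of 12598 genes. Omitting single arrays gave -1.64 to -1.31. It passed only without ChLO 3 (-1.64, limma adjusted p = 0.0134), where 302 of 12598 genes passed (2.4%), and in the 5 other omissions the limma adjusted p was 0.189 to 0.572. The SD of Pygl was 0.33 in ChLO and 0.19 in WT (n = 3 each), beside medians over all genes of 0.35 in ChLO and 0.27 in WT.

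Gaa, the lysosomal acid alpha-glucosidase that is deficient in Pompe disease, showed a small difference with little spread. It read 10.10, 10.18 and 10.25 in ChLO, against 10.42, 10.50 and 10.67 in WT. All ChLO arrays lay below all WT arrays, with a difference of -0.35 (SE 0.16, 95% interval -0.72 to 0.02, limma adjusted p = 0.571). Its pooled SD of 0.11 lay at percentile 3.75 of all genes. The second probe set read 9.45, 9.12 and 9.56 in ChLO, against 9.95, 9.76 and 10.02 in WT, a difference of -0.54 (SE 0.20). Neither probe set overlapped between groups, an arrangement with lower ChLO that 6.54% of all 27022 probe sets showed. With probe sets as the unit, 8 passed an adjusted p under 0.05 (0.0296%), and no glycogen probe set was among them, the smallest adjusted p being 0.113 for Pygl. Of 11 other genes of the lysosome and glycophagy tested, 4 had lower and 7 higher means in ChLO with a median of 0.08, and 0 passed over all genes (0 lower and 2 higher at an unadjusted p under 0.05). Hexa, a subunit of beta-hexosaminidase, differed by 0.58 (SE 0.18), Igf2r, a receptor that sorts lysosomal enzymes, by 0.56 (SE 0.21), M6pr, another such receptor, by 0.34 (SE 0.18) and Lamp2, a lysosomal membrane protein, by -0.27 (SE 0.18).

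**Figure D2:**
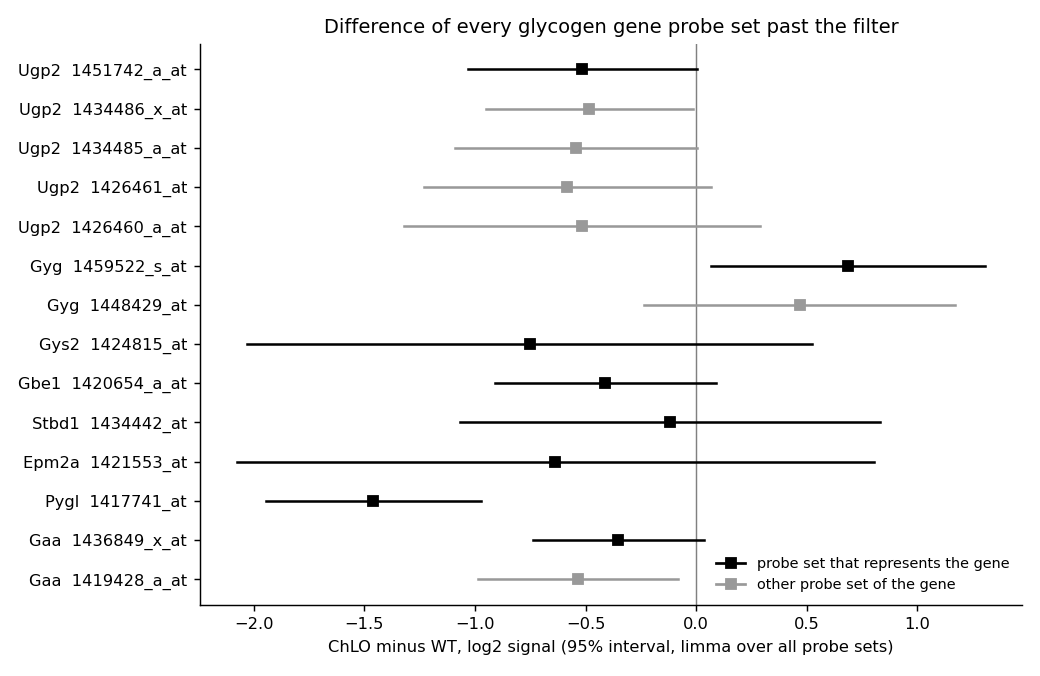
Difference ChLO minus WT in log2 signal (horizontal axis) with 95% intervals for the 14 glycogen gene probe sets past the filter, from the fit over 27022 probe sets; black marks the probe set that represents the gene and grey the others. The 5 probe sets of Ugp2 lie close together, and Pygl lies farthest from 0 at -1.46.

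The main breakdown and synthesis enzymes of the liver were then set against each other within arrays. This pair was chosen with earlier results of these data known. Pygl minus Gys2 was 2.24, 0.33 and 0.11 in ChLO 1, 2 and 3, against 2.07, 1.63 and 1.09 in WT 1, 2 and 3. ChLO 2 and ChLO 3 lay below every WT array and ChLO 1 above them. The difference between the group means was -0.71, from 0.89 ± 1.17 in ChLO and 1.60 ± 0.49 in WT (SD, n = 3 each), and an exact two-sided permutation test over 20 regroupings gave p = 0.4, where the smallest possible p is 0.1. The difference depended on single arrays, with -1.38 without ChLO 1, -0.43 without ChLO 2, -0.31 without ChLO 3 and -0.47 without WT 1. Only its change between groups can be read, since signals of different probe sets have no common scale.

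The isoforms of other tissues and the remaining enzymes of the route had small differences or a wide spread, apart from Nhlrc1. Of 7 other glycogen enzyme genes, 6 had a named probe set and 5 passed the filter; 2 had lower and 3 higher means in ChLO, with a median of 0.01, and 0 passed at an adjusted or an unadjusted p under 0.05. Pygb, the brain phosphorylase, read 9.06, 8.55 and 7.15 in ChLO, against 8.46, 7.65 and 7.61 in WT, with a difference of 0.35 (SE 0.50). Pygm, the muscle phosphorylase, lay below the filter. Gys1, the synthase of muscle and most other tissues, differed by -0.17 (SE 0.39). Pgm1, which interconverts glucose-1-phosphate and glucose-6-phosphate, read 11.46, 11.41 and 11.81 in ChLO, against 11.67, 11.50 and 11.48 in WT, and its difference was 0.01 (SE 0.17, 95% interval -0.39 to 0.41). Pgm2, a related phosphomutase, read 9.95, 9.04 and 7.59 in ChLO, against 8.09, 7.82 and 7.70 in WT, so that ChLO 1 and ChLO 2 were high and ChLO 3 was not. The difference of Pgm2 was 0.99 (SE 0.53). Whether the differences of these genes depart from that of Pygl was not tested.

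Proteins that switch the synthase and the phosphorylase on and off were spread around 0. Of 18 tested phosphatase subunits and kinases, 9 had lower and 9 higher means, with a median of -0.03, and 0 passed over all genes (2 lower and 0 higher at an unadjusted p under 0.05). Ppp1r3b, the subunit that brings protein phosphatase 1 to liver glycogen, differed by -0.68 (SE 0.26) and Ppp1r3c, a related subunit, by -0.84 (SE 0.42). Prkaa2, a catalytic subunit of AMP-activated kinase, differed by -0.68 (SE 0.22), and Phkb, a subunit of phosphorylase kinase, by -0.31 (SE 0.19). Genes around glucose-6-phosphate, where glycogen meets glucose output, stood lower as a list, with a median of -1.24 over 8 genes, 7 of them lower. There 6 were lower and 0 higher at an unadjusted p under 0.05, and 0 passed over all genes. G6pc, which frees glucose for export, read 9.76, 11.80 and 11.41 in ChLO, against 14.00, 14.29 and 14.49 in WT. Slc2a2, the liver glucose transporter, differed by -2.05 (SE 0.31), Pcx, pyruvate carboxylase, by -0.91 (SE 0.16) and Gckr, the glucokinase regulator, by -1.22 (SE 0.27). The median of these genes was farther from 0 than that of the members, a difference that was not tested.

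**Figure D3:**
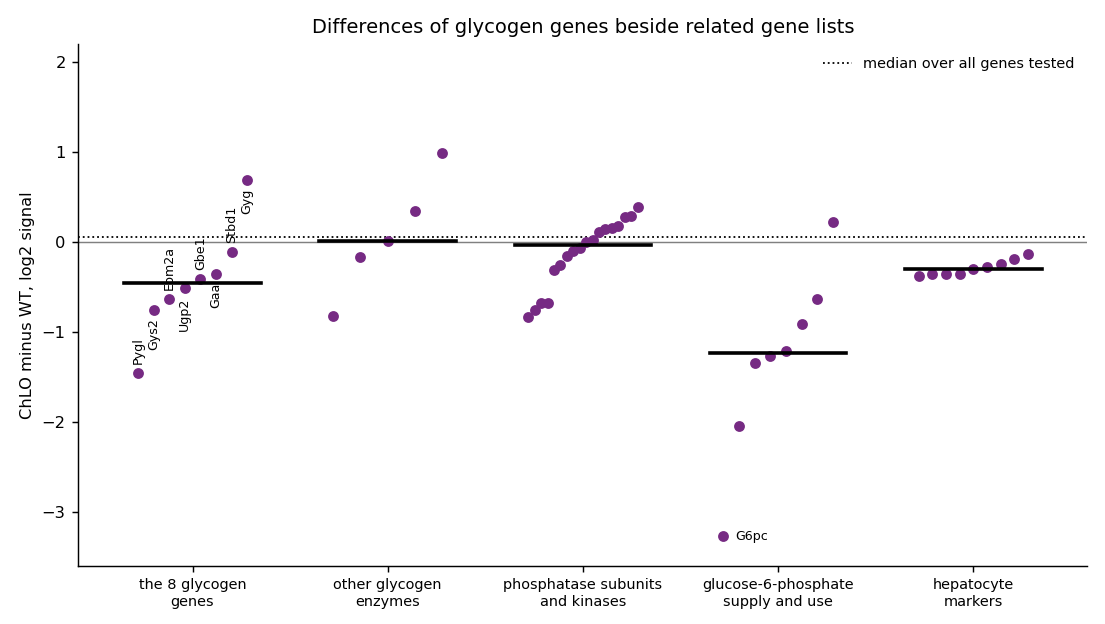
Difference ChLO minus WT in log2 signal (vertical axis) for each tested gene of 5 lists; thick bars are list medians and the dotted line is the median of 0.06 over all 12598 genes. The members have a median of -0.46 with Pygl lowest, and the genes around glucose-6-phosphate a median of -1.24 with G6pc lowest.

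Signals of other cell types differed between the same arrays. Relative to the average of WT, the hepatocyte markers had medians of -0.43, -0.38 and -0.16 in ChLO 1, 2 and 3, against -0.08, -0.09 and 0.14 in WT 1, 2 and 3, and 9 of 9 markers had lower means in ChLO. Their summed linear signal ran from 318679 to 403197 in ChLO, against 403125 to 464413 in WT. Summed stellate and fibroblast markers ran from 9028 to 28450 in ChLO, against 7543 to 11968 in WT, with 10 of 10 higher on average. Summed myeloid markers ran from 9456 to 20428 in ChLO, against 10061 to 11037 in WT, with 8 of the 9 tested higher. Of the cholangiocyte markers 6 were measured and 4 of the 5 tested were higher, with sums of 379 to 1542 in ChLO, against 220 to 389 in WT; Cftr lay below the filter. In each of these 3 lists ChLO 3 had the lowest sum of the ChLO arrays. Of the hepatocyte, stellate and myeloid markers measured, Itgam alone was below the filter. Of 8 skeletal muscle markers measured, 5 lay below the filter. Arrays with high stromal and myeloid medians, ChLO 1 and ChLO 2, were also those with high Gyg and low Ugp2, and the part of these markers in those differences was not tested.

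**Figure D4:**
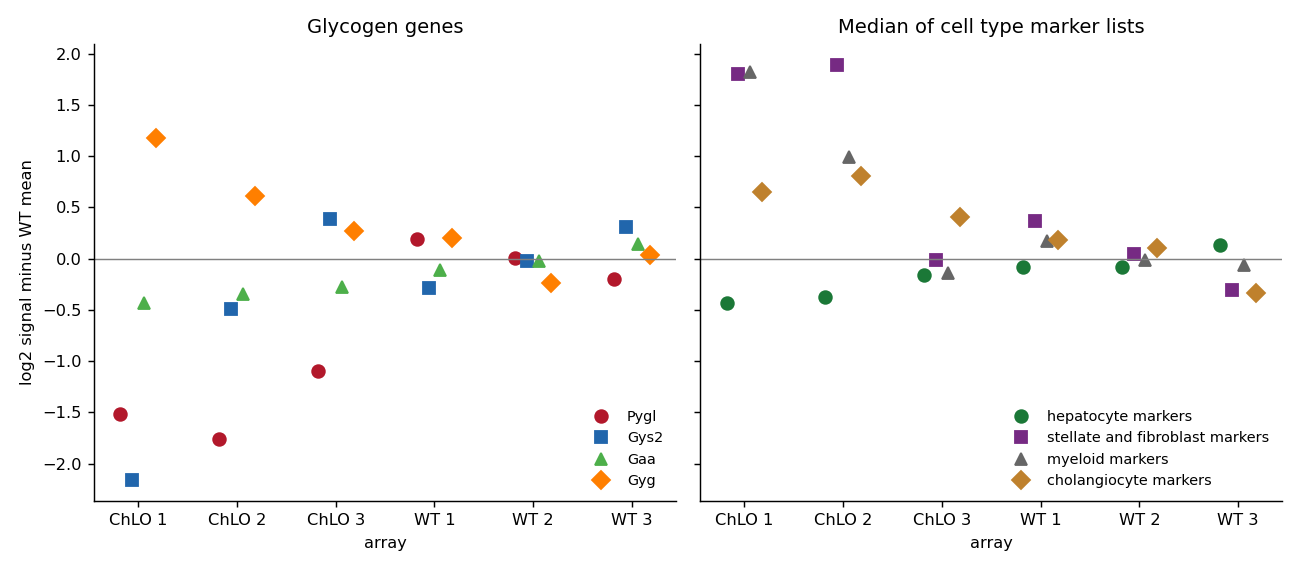
Log2 signal minus the WT mean (vertical axis) on each of the 6 arrays for 4 glycogen genes (left) and for the medians of 4 marker lists (right); points of an array are set apart sideways. Pygl lies between -1.76 and -1.10 in all 3 ChLO arrays, while Gys2 is at -2.16, -0.49 and 0.39 and the stellate median at 1.80, 1.89 and -0.01 in ChLO 1, 2 and 3.

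An alternative chosen after seeing the data centred each array on its hepatocyte marker median, which raised the median of all genes to 0.37. On this scale Pygl differed by -1.14 (limma adjusted p = 0.163), Gys2 by -0.44, Ugp2 by -0.20, Gbe1 by -0.10 and Gaa by -0.04, and Gyg by 1.00. The median of the 8 members was -0.15. Stbd1 turned to 0.20 on this scale, and 6 of the 8 members kept a lower mean in ChLO. Centring subtracts the same value from every gene of an array, so all differences shift by an equal amount. The sign change of Stbd1 and the smaller differences follow from that shift alone. The part of the hepatocyte marker shift in the members' differences was not tested.

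The genes whose signals followed Gys2 and Pygl most closely over the 6 arrays were listed as a description. Over these arrays 208 genes had a Pearson r above 0.95 with Gys2 and 55 with Pygl, out of 12598 tested, and with 6 arrays in 2 groups such values come easily. Closest to Gys2 were Slc25a13 (r = 0.998), which encodes the mitochondrial aspartate-glutamate carrier citrin, Sdha (0.998), a subunit of succinate dehydrogenase, Uqcr11 (0.996), a subunit of respiratory complex III, Camk2n1 (0.994) and Ctdsp1 (0.993). Each had its lowest signal in ChLO 1, as Gys2 itself did, which largely follows from the choice by r. Closest to Pygl were Fndc4 (r = 0.995), Bscl2 (0.991), which encodes the lipid droplet protein seipin, Dntt (0.989), AU015791 (0.984) and Ces2g (0.983), a carboxylesterase. All of these were lower in all ChLO arrays than in any WT array, a pattern of 6.19% of all genes. Pygl itself has this pattern, so it largely follows from the choice by r. The arrays share their scaling and their group, so these values carry no statement on common control.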

How the data were processed

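Liver RNA of 3 ChLO and 3 WT mice was measured on Affymetrix 3′ arrays, 1 per mouse. The authors deposited 1 table of log2 signals for 45101 probe sets per array, and MAS5, without a version, comes from the submitters' processing notes. The scale was worked out from the values: linear signals, trimmed by 2% at each end, averaged 500 on each of the 6 arrays. Depth has no counterpart on arrays, and their number limits the precision. Signals of dim probe sets vary widely on the log2 scale.

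Probe sets were named through the platform annotation, in which 34945 had a single symbol, 932 several and 9160 none; 64 were controls. Control probe sets and those with a mean log2 signal below the 40th percentile (5.50) were left out, which kept 27022. Where a gene had several probe sets, the brightest on average over the 6 arrays stood for it. ChLO was compared with WT by limma 3.58.1 in R 4.3.3 (lmFit, eBayes with a trend), with Benjamini-Hochberg adjustment over all 12598 genes; no p was adjusted over the members alone. A second fit took all probe sets as the unit. Differences are ChLO minus WT in log2 units. The labels call the samples biological replicates. The procedure was tested on simulated data. Those values were independent and normal, with the same SD of a gene in both groups. In the arrays the median SD was 0.35 in ChLO and 0.27 in WT, so the simulation does not cover unequal spread. The members and lists were chosen with earlier results of these data known. Named are all members with all their probe sets, Mlxipl, the other glycogen enzyme genes that had a named probe set, up to 4 genes with the smallest p of each further list, and the 5 genes with the highest r to Gys2 and to Pygl. Cftr and Itgam, named after their values were seen, are markers below the filter. Alternatives changed 1 choice at a time: normalization, spike-in scaling, filter, eBayes options, array weights, probe set choice, the replicate block, single arrays left out and, added after seeing the data, centring on hepatocyte markers. Same-numbered arrays of the groups did not all deviate together (correlations 0.30, -0.17 and 0.06), so numbers were not taken as pairs.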

Additional observations from a re-analysis of the deposited data

How the results depend on the processing

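Every member kept its side of the threshold, adjusted p of 0.05 over all genes, in all alternatives except Pygl. Pygl passed with array weights (-1.67, limma adjusted p = 0.00758), whose estimation stopped before convergence and gave ChLO 2 a weight of 4.58, and without ChLO 3; leaving out each array gave -1.64 to -1.31. Over all alternatives its difference was -1.67 to -1.14 and its adjusted p 0.00758 to 0.572. The difference of Stbd1 turned positive with spike-in scaling (0.13), array weights (0.34) and hepatocyte marker centring, which was chosen after seeing the data (0.20), and ran from -0.47 to 0.28 when arrays were left out, positive without ChLO 3, WT 1 or WT 3. That of Epm2a ran from -1.002 to 0.062, positive without ChLO 1, its lowest array at 4.59. Spike-in scaling and centring shift the differences of all genes by an equal amount, and those 2 sign changes of Stbd1 follow from that. Why single arrays differ was not tested. The members' median of -0.46 became -0.21 with spike-in scaling, which raised the median of all genes to 0.31, -0.15 with hepatocyte marker centring and -0.61 without probe sets that can match several transcripts (6 of 8 members left, Gbe1 and Gaa dropped), and ran from -0.59 to -0.25 when arrays were left out (without ChLO 1). The number of genes called by limma was 0 (1129 at an unadjusted p under 0.05), and became 3 with no filter, 568 with array weights (238 lower, 4.51% called in all), 1 with the replicate block and 14 at an adjusted p under 0.10, and ran from 0 to 302 when arrays were left out, 302 without ChLO 3 and 4 without ChLO 1. With the replicate block Pygl differed by -1.46 (limma adjusted p = 0.107), and the block changed no member's call. With array weights 3 of the 4 other probe sets of Ugp2 and the second of Gaa passed, where 1560 of all 27022 probe sets passed (5.77%). Epm2a gave no value with the stricter filter. Pygl minus Gys2 stayed negative in all 9 alternatives, between -1.38 and -0.31. The mean of all probe sets and the omission of probe sets that can match several transcripts left it at -0.71. Those alternatives could not change it, since each gene has 1 probe set. A second probe set for Pygl or Gys2 was not run, since each has 1. With 3 arrays a group, differences such as that of Gys2, with an interval of -2.06 to 0.55, cannot be told from 0.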
